A study of Mus musculus with 28 samples.

Results

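Il17a, Il17f, Il22, Il23r, Il1r1, Rora and Ccr6, genes of the Th17 and IL-22 program, were followed in CD4+ T cells of the mouse gut, taken from the small intestinal lamina propria (SILP). These 7 genes were chosen by name, and all 7 were found among the 25124 genes of the deposited expression table. Every library came from T-bet-ZsGreen mice, which carry a green reporter for the transcription factor T-bet, and from cells gated as live, CD45+, CD90.2+, TCRb+ and CD4+. The mice were specific pathogen free (SPF) or germ-free (GF), the latter raised without a microbiota, and had received an antibody to CD3 (aCD3), the signalling part of the T cell receptor, or an isotype control antibody. The 28 libraries were 6 SPF isotype (3 female, 3 male), 6 SPF aCD3 (3 female, 3 male), 10 GF isotype (5 female, 5 male) and 6 GF aCD3 (1 female, 5 male). The age of the mice and the dose and timing of the antibody were not given in the sources used here. The comparisons asked how the genes differed after aCD3 in each kind of mouse, between GF and SPF mice under each antibody, and whether the aCD3 difference itself depended on colonisation.

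Th17 cells are CD4+ T cells that secrete IL-17A, IL-17F and IL-22, cytokines that drive epithelial defence and neutrophil recruitment at barrier surfaces. In the mouse small intestine their number is known to depend on the microbiota, with segmented filamentous bacteria the classic inducer. IL-23 and IL-1, read through Il23r and Il1r1, sustain the program. Rora encodes a nuclear receptor that takes part in Th17 differentiation, and Ccr6 is the chemokine receptor for CCL20 that marks many Th17 cells.

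Levels are given as deposited TPM, the depth-scaled and length-scaled level the authors computed, per base of each gene's genomic span with introns included, so levels of different genes were not ranked against each other. The 28 columns summed to between 679994 and 786003. The defining T cell genes were abundant in all groups, with Cd4 between 166 and 275 TPM and Cd3e between 274 and 430 TPM over the libraries. All 12 SPF libraries carried the sample numbers 1 to 12 in the deposited column names and the GF libraries carried numbers from 25 to 54 in separate runs. Colonisation and this ordering therefore cannot be told apart. Within SPF the isotype libraries carried 1 to 6 and the aCD3 libraries 7 to 12, so antibody and ordering cannot be told apart there either. In 3 of the 6 GF aCD3 libraries (F1, M3 and M4) Lag3, a checkpoint receptor gene that was between 505 and 825 TPM in SPF aCD3, was at 9.59, 17.0 and 12.3 TPM, inside the range of the isotype libraries. The other 3 GF aCD3 libraries held 452 to 527 TPM of Lag3, and the tests of the 7 genes between groups that rest on this group are given with and without F1, M3 and M4. No label says that each library came from a separate mouse, so p-values measure only the spread between these libraries.

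Il17a lies on the plus strand at chr1:20730905-20734496 and Il17f on the minus strand at chr1:20777146-20784270, 42.65 kb apart (mouse mm10, GRCm38). Il22 lies at chr10:118204964-118210046 (plus strand), Il23r at chr6:67422932-67491855 (minus strand) and Il1r1 at chr1:40266586-40316177 (plus strand). Rora was counted over chr9:69289841-69388246 (plus strand), and Ccr6 over chr17:8245058-8257129 (plus strand), the RefSeq start used for the Ccr6 window lying before that span. To show the sequence next to the starts of these genes, the 250 bases before each RefSeq start (GRCm38.p6) were searched on both strands for AGGTCA, the core site bound by ROR nuclear receptors. It was present in 4 of the 9 windows of the 7 genes, at Il17a, Il17f, Il23r and Ccr6, against 14.0% of all 32851 windows of that length. Both strands were read, none of the matches printed overlaps one of another motif, and sites that read the same on both strands were counted once. The 4 windows are printed 5′ to 3′ on the strand of the gene, with each AGGTCA, or TGACCT where it is on the other strand, in capitals. They lie at chr1:20730655-20730904 (Il17a, plus strand), chr1:20784271-20784494 (Il17f, minus strand, with 26 bases of an annotated exon left out), chr6:67491856-67492105 (Il23r, minus strand) and chr17:8235793-8236042 (Ccr6, plus strand).
Il17a: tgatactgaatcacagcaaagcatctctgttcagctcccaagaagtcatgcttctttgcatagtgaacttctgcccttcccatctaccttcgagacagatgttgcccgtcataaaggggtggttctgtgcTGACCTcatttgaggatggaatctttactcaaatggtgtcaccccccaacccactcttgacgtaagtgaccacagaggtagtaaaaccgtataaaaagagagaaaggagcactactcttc
Il17f: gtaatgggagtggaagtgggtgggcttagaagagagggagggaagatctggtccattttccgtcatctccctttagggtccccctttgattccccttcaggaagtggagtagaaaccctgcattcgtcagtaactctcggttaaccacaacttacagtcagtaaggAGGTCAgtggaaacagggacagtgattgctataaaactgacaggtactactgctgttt
Il23r: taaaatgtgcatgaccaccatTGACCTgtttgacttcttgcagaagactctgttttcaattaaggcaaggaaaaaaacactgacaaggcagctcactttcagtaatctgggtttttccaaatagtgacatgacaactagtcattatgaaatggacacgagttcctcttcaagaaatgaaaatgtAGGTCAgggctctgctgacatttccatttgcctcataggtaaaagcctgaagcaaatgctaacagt
Ccr6: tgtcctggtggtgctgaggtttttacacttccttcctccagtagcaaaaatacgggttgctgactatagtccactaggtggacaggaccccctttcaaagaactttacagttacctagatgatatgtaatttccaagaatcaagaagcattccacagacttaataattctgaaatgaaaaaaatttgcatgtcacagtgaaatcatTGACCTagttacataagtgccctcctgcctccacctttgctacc
The Il17a match began 120 bases before the start, the Il17f match 58, the Il23r matches 229 and 66, and the Ccr6 match 44. The window of Il17a also held a match to TGANTCA, a loose form of the core AP-1 site that allows any middle base. The matched letters were TGAATCA, and 6.75% of all windows held a match to the loose form. The window of Ccr6 held 2 matches to TTCNNNGAA, the STAT site, found in 7.02% of all windows. No match was found at Il22, Rora or Il1r1. A match describes letters and is not a measured binding site.

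After aCD3 in SPF mice, the IL-17 cytokine genes rose, Rora and Il23r fell, and Il22 and Il1r1 did not pass the test. Il17a spanned 45.6, 56.5 and 76.6 TPM (lowest, median and highest of 6) in SPF isotype and 101, 391 and 478 TPM in SPF aCD3. Each SPF aCD3 library thus lay above every SPF isotype library. The means were 59.8 ± 11.96 and 339.6 ± 158.6 TPM (SD, n = 6 each), a ratio of 5.68, and the log2 difference was 2.32 (SE 0.75, adjusted p = 0.00906 by limma). Log2 differences were taken between values of log2(TPM + 1), a scale that makes changes of weakly expressed genes look smaller than they are, and p-values are Benjamini-Hochberg adjusted over all 12182 genes tested.

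Il17f, whose product pairs with IL-17A in a heterodimer, spanned 0.152, 1.31 and 3.78 TPM in SPF isotype and 6.997, 25.3 and 40.7 TPM in SPF aCD3. The groups were again separate, with a ratio of means of 15.6 and a log2 difference of 3.29 (SE 0.42, adjusted p = 2.56e-06, limma). Both genes were highest in the female libraries F1 and F3 of SPF aCD3 and lowest in M2. Spliced transcripts of the pair are of nearly equal length (1171 and 1178 bases), but their genomic spans are 3591 and 7124 bases. Ratios of their counts were therefore compared between groups and not read as relative levels of the 2 genes. The deposited values rise in whole steps where this was checked, so that relative counts could be recovered. Per library, Il17a had 9.57 to 151 times the counts of Il17f in SPF isotype and 5.44 to 9.33 times in SPF aCD3. The lowest isotype ratio was thus above the highest aCD3 ratio, and the top isotype ratio came from a library, M3, with 2 counted steps of Il17f.

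Il22, the epithelium-directed cytokine, did not follow the IL-17 genes. It spanned 14.1, 30.3 and 47.0 TPM in SPF isotype and 10.0, 35.1 and 58.7 TPM in SPF aCD3, so the ranges overlapped from end to end. The log2 difference was 0.13 (SE 0.44, adjusted p = 0.803, limma). Il17a per Il22 therefore stood at 1.44 to 3.67 in SPF isotype and 8.13 to 12.3 in SPF aCD3, as ratios of TPM within a library.

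**Figure D1:**
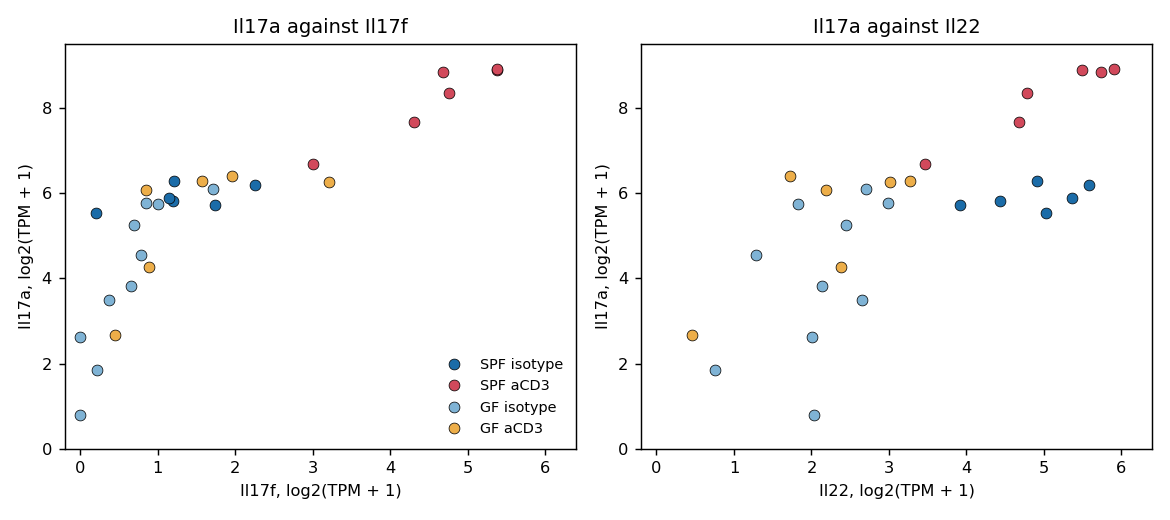
Il17a against Il17f (left) and against Il22 (right) in the 28 libraries, both axes log2(TPM + 1), 1 point per library, coloured by group. The SPF aCD3 libraries lie above all others on the Il17a axis, while on the Il22 axis both SPF groups share a range that starts at 10.0 TPM and the GF libraries stay at or below 8.67 TPM.

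The receptor and transcription factor genes went the other way or did not pass. Il23r, the signalling chain of the IL-23 receptor, spanned 8.45, 11.5 and 13.9 TPM in SPF isotype and 1.88, 4.39 and 5.78 TPM in SPF aCD3, with no overlap, and fell by 1.30 on the log2 scale (SE 0.27, adjusted p = 0.000227). Rora spanned 48.5, 72.6 and 87.0 TPM in SPF isotype and 13.2, 20.3 and 22.5 TPM in SPF aCD3, also with no overlap. It fell by 1.86 (SE 0.26, adjusted p = 5.90e-06, limma). Ccr6 spanned 4.16 to 11.2 TPM in SPF isotype and 2.07 to 6.68 TPM in SPF aCD3, with 2 of 6 aCD3 libraries below every isotype library, a log2 difference of -0.63 and an adjusted p of 0.110. Il1r1, the IL-1 receptor chain, spanned 0.703, 2.32 and 3.99 TPM in SPF isotype and 0.79, 3.78 and 5.05 TPM in SPF aCD3. Its log2 difference was 0.32 (adjusted p = 0.288), and without the SPF aCD3 library M2 it was 0.56 (adjusted p = 0.0387).

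In all, 4 of the 7 genes passed in SPF mice, 2 higher and 2 lower. That share is read against the background: 64.8% of all genes tested passed, 14.2% higher and 50.7% lower, and groups did not overlap for 8.57% of genes on the higher side and 33.4% on the lower side. The median log2 difference was -0.35 over all genes and 0.13 over the 7. When the values were rescaled by the median of ratios, the all-gene median was -0.01 and 3679 genes passed as higher against 3628 lower, in place of 1726 and 6172. Relative to that centre Il17a was at 2.73, Il17f at 3.67, Il23r at -0.96 and Rora at -1.46, and the same 4 passed. The levels of markers of other cells also differed between these groups. The summed level of 8 myeloid markers was 2.84 to 12.4 TPM in SPF isotype and 57.8 to 149 TPM in SPF aCD3, with Cd68 the largest part (means of 5.99 and 76.5 TPM). S100a8, S100a9 and Cd14 were listed at 0 in every SPF isotype library. In SPF aCD3 each was at 0 in 4 of the 6 libraries, and the highest single values were 65.5, 25.6 and 2.72 TPM. The means of Csf1r (0.211 and 0.0965 TPM) and Lyz2 (0.726 and 0.133 TPM) were lower in SPF aCD3. The 6 B and plasma cell markers summed to 95.7 to 272 TPM in SPF isotype and 2.51 to 8.77 TPM in SPF aCD3. The 3 innate-like T cell markers summed to 26.4 to 39.9 and 4.399 to 7.09 TPM, and the 6 stroma markers to 4.42 to 42.1 and 0.467 to 2.28 TPM. The 5 genes listed as ILC3 and LTi markers, not all of them specific to those cells, summed to 19.0 to 26.8 and 12.6 to 21.9 TPM. Of these, the means of Ncr1 (3.91 and 0.237 TPM) and Tnfsf11 (12.6 and 5.97 TPM) were lower in SPF aCD3. The means of Kit (1.04 and 4.59 TPM), Il1rl1 (4.73 and 5.72 TPM) and Nrp1 (0.275 and 0.461 TPM) were higher. The part of all these markers in the results was not tested. In sorted bulk cells, fewer cells of a type and less RNA per cell cannot be told apart.

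**Figure D2:**
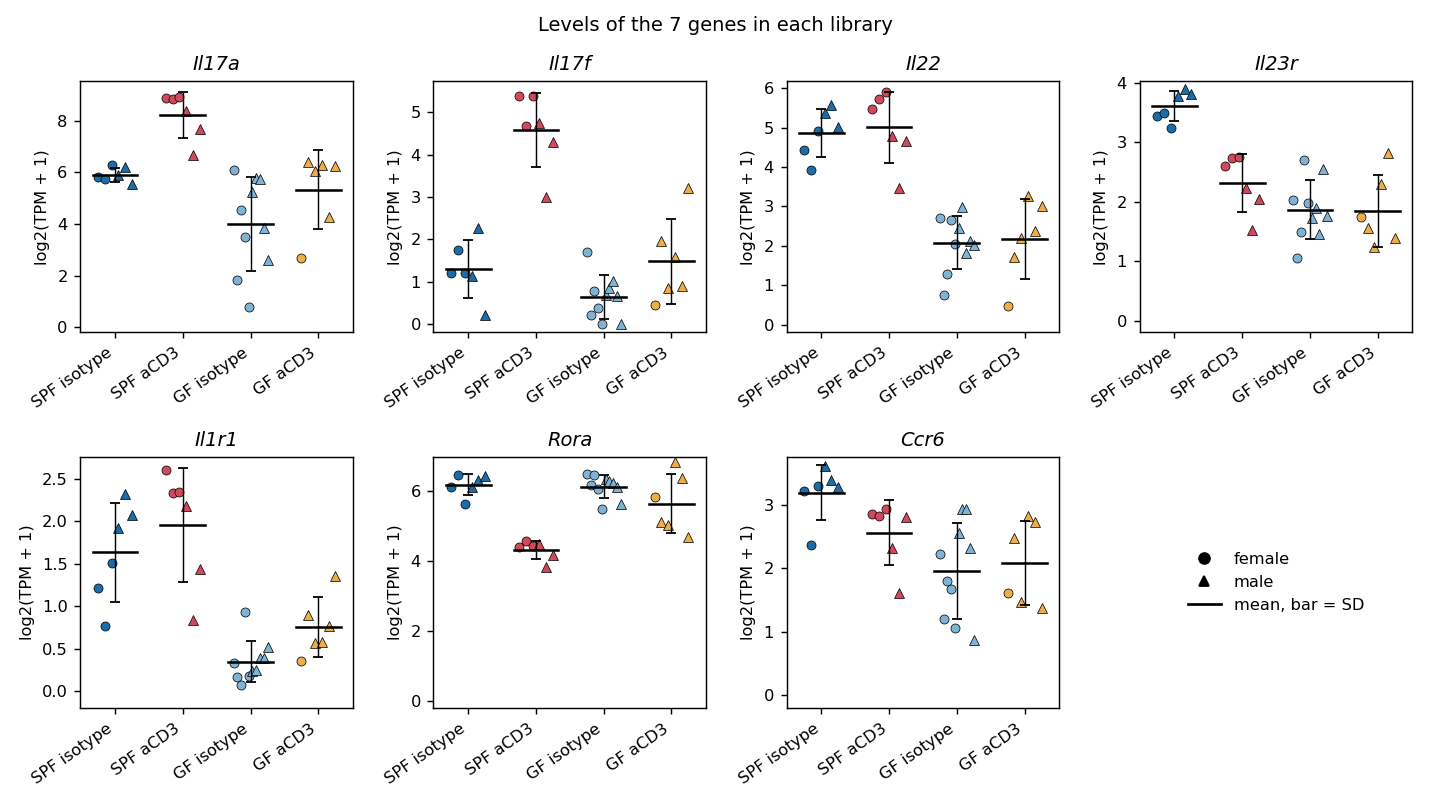
Levels of the 7 genes as log2(TPM + 1) in each of the 28 libraries, by group, with circles for female and triangles for male libraries, the mean as a line and the SD as a bar. Il17a and Il17f are highest in SPF aCD3, Il22, Il23r and Il1r1 are low in both GF groups, and Rora is low in SPF aCD3.

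Other genes of the program moved in both directions after aCD3 in SPF mice. Of 8 further effector cytokines and chemokines, 5 rose and 2 fell. Cxcl3, a neutrophil chemokine, went from a mean of 2.59 to 27.6 TPM (log2 difference 3.24) and Il10, the inhibitory cytokine, from 92.3 to 654 TPM (2.81). Tnf and Ltb fell by 1.23 and 1.13. Of 10 transcription factors of the program, 4 rose, led by Hif1a (1.09) and Irf4 (0.68), and 3 fell, led by Junb (-2.33) and Runx1 (-1.03). The call of Maf as higher (0.27) changed direction under quantile normalization (-0.14), and that of Ahr as lower (-0.29) changed direction under median of ratios scaling (0.11).

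Among 19 receptor chains and signalling genes for IL-23, IL-1 and IL-6, 2 rose and 10 fell, shares close to those of all genes tested (14.2% higher and 50.7% lower). Il18r1, the IL-18 receptor chain, fell by 1.53 and Jak2, the kinase used by the IL-23 receptor, fell by 1.28, while Myd88, the adaptor of IL-1 and IL-18 receptors, rose by 0.72 and Irak1 by 0.34. Under median of ratios scaling this list stood at 7 higher and 5 lower, so its balance follows the scaling. Of 13 other Th17-associated genes tested 3 rose, led by Il1rn (1.63), the IL-1 receptor antagonist, and Ltb4r1 (0.99), and 4 fell, led by Ramp1 (-1.49) and Serpinb1a (-0.85) and including Cxcr6, whose direction turned under median of ratios scaling (0.11). Of 4 IL-17 receptor chains tested, Il17rc (-0.66) and Il17re (-0.59) fell, and the call of Il17re was lost under each of 4 other scalings. The list medians were 1.47 for the effector genes, -0.30 for the signalling genes, -0.12 for the factors, -0.26 for the other Th17 genes and -0.58 for the IL-17 receptors, beside -0.35 for all genes tested.

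In GF mice none of the 7 genes passed between aCD3 and isotype over all 6 aCD3 libraries. Il17a spanned 0.732, 17.7 and 67.2 TPM in the 10 GF isotype libraries. In GF aCD3 it was at 5.35 TPM in F1, 83.8 in M1, 66.1 in M2, 77.3 in M3, 18.2 in M4 and 75.1 in M5. Only 3 of the 6 aCD3 libraries lay above every isotype library, and the log2 difference was 1.13 (SE 0.69, adjusted p = 0.236, limma). Il17f was at 0.646 ± 0.666 TPM (SD, n = 10) in GF isotype, with no count in F5 and M5, where a count of 0 allows up to 0.554 and 0.381 TPM. In GF aCD3 it spanned 0.36, 1.42 and 8.25 TPM, with a log2 difference of 0.90 (SE 0.39, adjusted p = 0.104). Il17f was the 1 gene of the 7 with an unadjusted p under 0.05 (p = 0.0291, limma).

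Rora separated the GF aCD3 libraries along the same line as Lag3. It was at 55.5, 112 and 80.8 TPM in F1, M3 and M4 and at 33.2, 31.4 and 24.8 TPM in M1, M2 and M5, beside 43.9 to 87.8 TPM in GF isotype. The latter 3 libraries lay below every GF isotype library. Over all 6 the log2 difference was -0.46 (SE 0.24, adjusted p = 0.169, limma). Il22 (3.64 ± 1.93 and 4.37 ± 3.06 TPM), Il23r (2.85 ± 1.38 and 2.88 ± 1.80 TPM) and Ccr6 (3.37 ± 2.17 and 3.63 ± 2.05 TPM; SD, n = 10 and 6) were close to level, with log2 differences of -0.01, -0.0044 and 0.02. Il1r1 was at 0.290 ± 0.244 and 0.731 ± 0.453 TPM, a log2 difference of 0.38 (adjusted p = 0.250).

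Of all genes tested 7.08% passed in this comparison, 2.46% higher and 4.61% lower, and the groups lay apart for 0.0328% of genes on either side and for none of the 7. The all-gene median was -0.15, and under median of ratios scaling 685 genes passed as higher and 490 as lower, in place of 300 and 562. Without F1, M3 and M4 the counts were different: 3 of the 7 genes passed, Il17a (log2 difference 2.14, adjusted p = 0.0336), Il17f (1.55, adjusted p = 0.00819) and Rora (-1.17, adjusted p = 3.6e-05), with 7259 genes passing in all (limma). Il22 was then at 0.21 (adjusted p = 0.735), Il23r at -0.43 (adjusted p = 0.200), Ccr6 at -0.33 (adjusted p = 0.505) and Il1r1 at 0.59 (adjusted p = 0.126). In GF isotype and GF aCD3 the myeloid markers summed to 3.90 to 18.9 and 8.75 to 69.0 TPM. Cd68 was the largest part (means of 10.4 and 29.9 TPM). The means of Lyz2, Csf1r, Itgax and Adgre1 were lower in GF aCD3, and S100a8, S100a9 and Cd14 were listed at 0 in most libraries of both groups. The innate-like T cell markers summed to 18.9 to 63.6 and 4.49 to 27.7 TPM. The part of these markers in the result was not tested. Leaving out F1 alone brought Il17f past the threshold (1.24, adjusted p = 0.0279), and leaving out M3 alone brought Rora past it (-0.69, adjusted p = 0.0187). The GF libraries fell into 2 runs of sample numbers, 25 to 33 and 48 to 54, with 3 aCD3 libraries in each. Within the first run the Il17a difference was 0.67 and within the second 1.43, those of Rora were -0.63 and -0.18, and no member passed within either run. Of the other genes of the program, 1 of 8 effector genes (Tnf, lower by 0.50, a call lost under median of ratios scaling) and none of the 19 signalling genes, 10 factors, 13 other genes and 4 receptors passed over all 6 libraries. Without F1, M3 and M4 those counts were 6, 15, 7, 3 and 1.

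**Figure D3:**
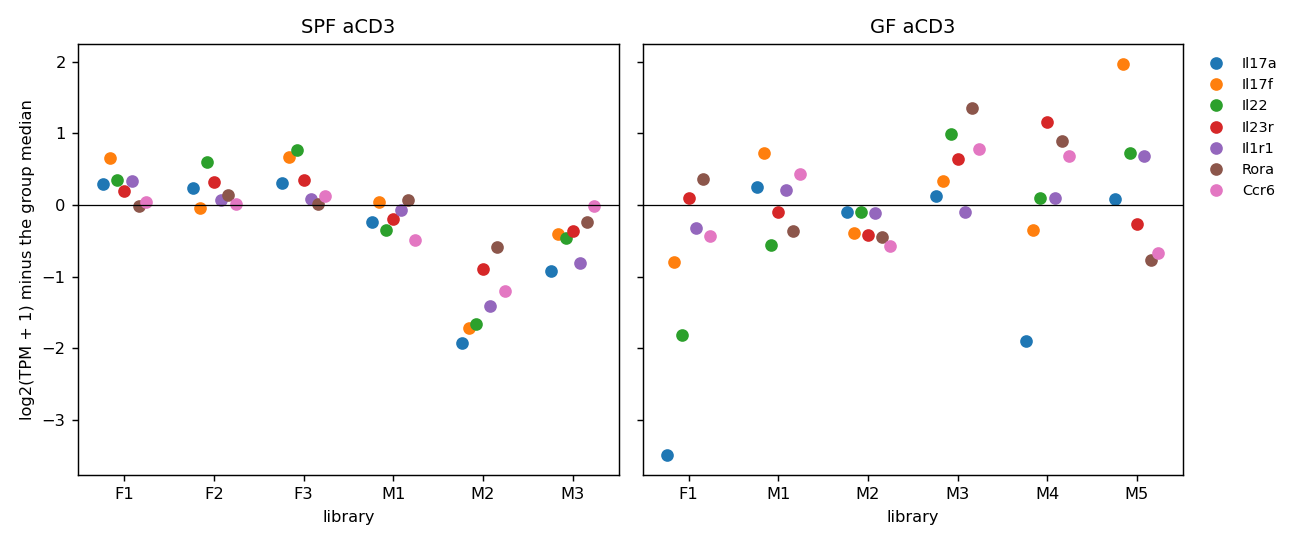
Each gene's log2(TPM + 1) minus the median of its group, for the 6 SPF aCD3 and the 6 GF aCD3 libraries, 1 colour per gene. In SPF aCD3 the library M2 lies lowest for 7 of 7 genes. In GF aCD3, Il17a is lowest in F1 (5.35 TPM) and M4 (18.2 TPM), and Rora is highest in M3 (112 TPM) and M4 (80.8 TPM).

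The aCD3 difference itself was compared between GF and SPF mice by an interaction term. It passed for 3 of the 7 genes, beside 3.48% of all genes (2.44% with a positive and 1.04% with a negative value). Under median of ratios scaling 646 genes had a positive and 735 a negative call, in place of 297 and 127, and the same 3 of the 7 passed. The Il17f difference was lower in GF by 2.39 log2 units (interaction -2.39, SE 0.58, adjusted p = 0.0288), and those of Rora (1.39, SE 0.36, adjusted p = 0.0364) and Il23r (1.29, SE 0.37, adjusted p = 0.0499) were positive, since both fell in SPF mice. These 3 calls were not stable. With F1, M3 and M4 left out, Il17f stood at -1.74 (adjusted p = 0.370), Rora at 0.69 (adjusted p = 0.400) and Il23r at 0.87 (adjusted p = 0.476), and none passed. Leaving out 1 library at a time, Il17f was lost without GF aCD3 F1 (adjusted p = 0.101) or M4, Rora in 11 of 28 cases and Il23r in 22 of 28. With the pseudocount at 0.1, only Rora passed. The interaction values of the others were -1.19 for Il17a (SE 1.02, adjusted p = 0.416), -0.14 for Il22, 0.65 for Ccr6 and 0.06 for Il1r1. Without F1, M3 and M4 they were -0.18 for Il17a, 0.074 for Il22, 0.30 for Ccr6 and 0.26 for Il1r1.

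**Figure D4:**
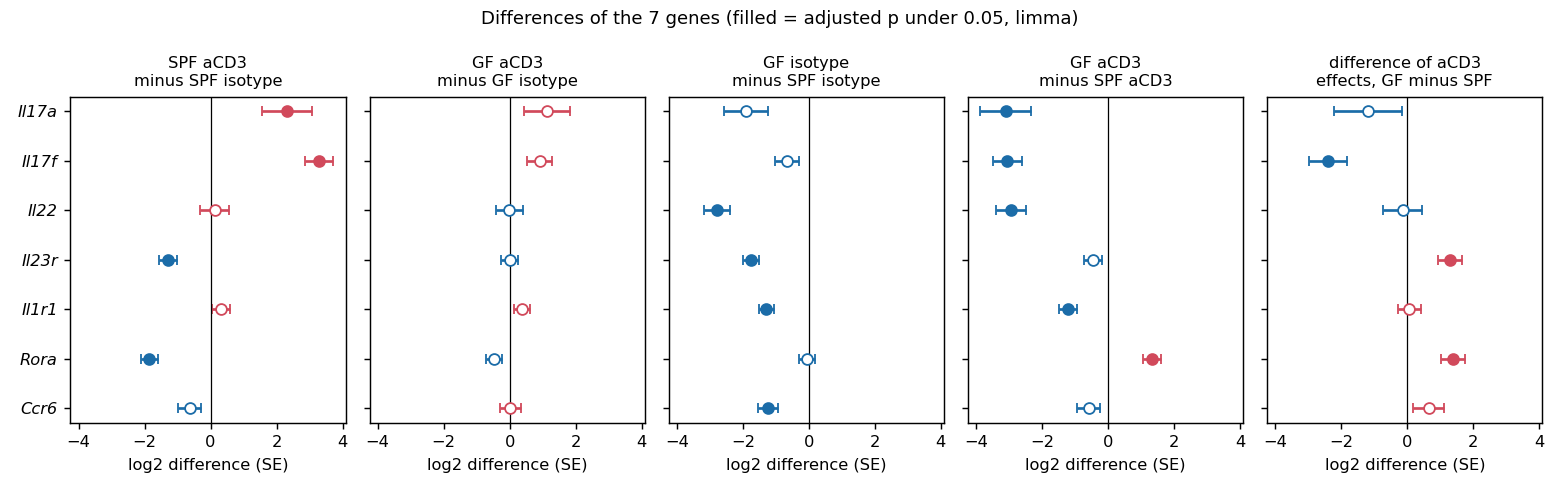
Log2 differences of the 7 genes (x axis, bars are SE) in the 4 comparisons between groups and for the interaction, filled where the adjusted p was under 0.05. Filled points number 4, 0, 4, 5 and 3 from left to right, and Il22 is filled in both comparisons of GF with SPF.

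Under the isotype antibody, GF mice had less Il22, Il23r, Il1r1 and Ccr6 than SPF mice. Il22 spanned 0.69, 3.25 and 6.95 TPM over the 10 GF isotype libraries against 14.1, 30.3 and 47.0 TPM in SPF isotype. Every GF library was below every SPF library, the SPF mean was 8.37 times the GF mean, and Il22 fell by 2.79 on the log2 scale (SE 0.39, adjusted p = 0.000133, limma). Il23r spanned 1.08, 2.57 and 5.48 TPM in GF isotype, all below the lowest SPF isotype value of 8.45 TPM. The SPF mean was 4.00 times the GF mean, with a log2 difference of -1.75 (SE 0.24, adjusted p = 0.000131, limma).

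Il1r1 spanned 0.052, 0.227 and 0.905 TPM in GF isotype against 0.703, 2.32 and 3.99 TPM in SPF isotype, with 9 of 10 GF libraries below every SPF library. The log2 difference was -1.29 (SE 0.24, adjusted p = 0.00190, limma). No GF isotype library reached 1 TPM of Il1r1, while 5 of 6 SPF isotype libraries did. Ccr6 spanned 0.824, 3.08 and 6.65 TPM in GF and 4.16, 8.80 and 11.2 TPM in SPF isotype, with 7 of 10 GF libraries below every SPF library and a log2 difference of -1.24 (SE 0.31, adjusted p = 0.0176). Without the SPF isotype library F3 the adjusted p of Ccr6 was 0.0535.

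The IL-17 genes did not pass in this comparison. Il17a spanned 0.732 to 67.2 TPM over the 10 GF isotype libraries, with 7 below every SPF isotype library and 3 inside the SPF range of 45.6 to 76.6 TPM. The log2 difference was -1.90 (SE 0.67, adjusted p = 0.0796, limma), and it passed without the GF isotype library F1 (-2.18, adjusted p = 0.0436) and without the 3 GF aCD3 libraries, which share the estimate of the spread (adjusted p = 0.0363). Among the GF isotype libraries, the 6 of the first run of sample numbers spanned 2.61 to 67.2 TPM of Il17a and the 4 of the second 0.732 to 13.2 TPM, a difference of -2.19 on the log2 scale (adjusted p = 0.109). For Rora the runs differed by -0.50 (adjusted p = 0.0462), where 10.3% of all genes passed. Il17f was near the limit of counting in both groups (0.646 ± 0.666 and 1.68 ± 1.24 TPM; SD, n = 10 and 6; adjusted p = 0.275). Rora was level, at 69.9 ± 14.6 TPM in GF and 72.0 ± 14.1 TPM in SPF isotype (log2 difference -0.05, adjusted p = 0.910).

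Thus 4 of the 7 genes were lower in GF isotype and none was higher, where 7.17% of all genes tested passed, 6.42% higher and 0.755% lower. Groups lay apart on the lower side for 0.238% of all genes, Il22 and Il23r among them, and on the higher side for 2.39%. The median log2 difference was -1.29 over the 7 and 0.15 over all genes. Under median of ratios scaling 63 genes passed as higher and 141 as lower, in place of 782 and 92, and 4 of the 7 genes again passed as lower. Marker sums beside these values were as follows. ILC3 and LTi cells also make IL-22, but the 5 genes listed as their markers are not all specific to them, Il1rl1 in particular. The 5 summed to 19.0 to 26.8 TPM in SPF and 18.9 to 39.6 TPM in GF isotype. Tnfsf11 (means of 12.6 and 18.1 TPM) and Il1rl1 (4.73 and 7.72 TPM) were the largest parts. The other means were 3.91 and 1.22 TPM for Ncr1, 1.04 and 0.706 TPM for Kit, and 0.275 and 0.322 TPM for Nrp1. Of these 5, 2 means were thus lower and 3 higher in GF isotype. The 4 gamma delta T cell markers summed to 1.23 to 3.23 and 0.718 to 2.35 TPM. B and plasma cell markers summed to 10.995 to 114 TPM in GF isotype and stroma markers to 0.384 to 2.82 TPM, beside 4.42 to 42.1 TPM of stroma markers in SPF isotype. The part of these in the results was not tested.

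Of the other genes of the program, 2 of 8 effector genes, 3 of 19 signalling genes, none of 10 factors, 4 of 13 other genes and 2 of 4 IL-17 receptor chains passed between GF and SPF isotype, beside 7.17% of all genes. Of the 8 effector genes Ccl20, the CCR6 ligand, fell from a mean of 7.27 TPM in SPF to 0.791 TPM in GF (log2 difference -2.30), and Cxcl3 passed as lower with 2.59 TPM in SPF and a listed value of 0 in all 10 GF libraries. Of the 19 signalling genes Il1r2, the decoy receptor for IL-1, was lower by 1.21, and Myd88 and Irak4 were higher by 0.32 each, calls that were lost under median of ratios scaling. Of the 13 other Th17-associated genes Il17re (-1.69), Aqp3 (-0.97) and Serpinb1a (-0.92) were lower and Cxcr6 (0.45) was higher, a call lost under median of ratios scaling. Il17re and Il17rb were the 2 of 4 IL-17 receptor chains that passed. Il17re stands in both lists and encodes a chain of the IL-17C receptor. Il17rb (1.20, a call lost under median of ratios scaling) encodes the chain that binds IL-25.

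Between the aCD3 groups, Il17a, Il17f, Il22 and Il1r1 were lower and Rora was higher in GF than in SPF mice. Il17a was at or below 83.8 TPM in GF aCD3 and at or above 101 TPM in SPF aCD3. The SPF mean was 6.25 times the GF mean, and the log2 difference was -3.10 (SE 0.77, adjusted p = 0.00242, limma). Il17f differed by -3.05 (SE 0.43, adjusted p = 7.02e-05), with 5 of 6 GF libraries below every SPF library. Il22 spanned 0.378, 3.88 and 8.67 TPM in GF and 10.0, 35.1 and 58.7 TPM in SPF aCD3, with no overlap and a log2 difference of -2.93 (SE 0.45, adjusted p = 0.000123).

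Il1r1 was lower by 1.23 (SE 0.27, adjusted p = 0.00116) and Rora higher by 1.34 (SE 0.27, adjusted p = 0.000715), the 24.8 to 112 TPM of Rora in GF aCD3 lying above the 13.2 to 22.5 TPM in SPF aCD3. Il23r (-0.46, adjusted p = 0.166) and Ccr6 (-0.59, adjusted p = 0.159) did not pass. Both passed under median of ratios scaling, Il23r at -0.79 (adjusted p = 0.0187) and Ccr6 at -0.93 (adjusted p = 0.0401). Ccr6 also passed without the SPF aCD3 library M2 (adjusted p = 0.0458).

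So 5 of the 7 genes passed, 4 lower and 1 higher in GF aCD3, beside 53.3% of all genes (48.9% higher and 4.46% lower). Groups lay apart for 0.78% of genes on the lower side, with Il17a and Il22 among them, and for 12.2% on the higher side, with Rora among them. The all-gene median was 0.34, and under median of ratios scaling 1956 genes passed as higher and 2032 as lower, in place of 5953 and 543. Without F1, M3 and M4, 2 of the 7 genes passed, Il17f (-2.41, adjusted p = 0.0154) and Il22 (-2.72, adjusted p = 0.00940), with 429 genes in all. Il17a was then at -2.09 (adjusted p = 0.171), Rora at 0.64 (adjusted p = 0.0896) and Il1r1 at -1.02 (adjusted p = 0.0908). Il23r was at -0.88 (adjusted p = 0.0947) and Ccr6 at -0.93 (adjusted p = 0.201). Markers of other cells differed here as well. Myeloid markers summed to 57.8 to 149 TPM in SPF aCD3 and 8.75 to 69.0 TPM in GF aCD3, innate-like T cell markers to 4.399 to 7.09 and 4.49 to 27.7 TPM, B and plasma cell markers to 2.51 to 8.77 and 6.67 to 97.7 TPM, and ILC3 and LTi markers to 12.6 to 21.9 and 12.2 to 34.2 TPM. Cd68 was the largest part of the myeloid sum (means of 76.5 TPM in SPF and 29.9 TPM in GF aCD3). The means of Lyz2 (0.133 and 0.933 TPM), Csf1r (0.0965 and 0.338 TPM), Itgax and Adgre1 were higher in GF aCD3. S100a8, S100a9 and Cd14 were listed at 0 in most libraries of both groups. Of the ILC3 and LTi list, Kit was lower in GF aCD3 (4.59 and 1.98 TPM). Tnfsf11 (5.97 and 13.7 TPM), Ncr1, Il1rl1 and Nrp1 were higher. The part of these markers in the result was not tested. This comparison shares its aCD3 libraries with the others, so its values are set beside them and are not a separate replication.

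Of the effector genes, Ccl20 (27.96 TPM in SPF and 2.07 TPM in GF aCD3, -3.41), Cxcl3 (27.6 and 1.33 TPM, -3.74) and Il10 (-1.51) were lower, and Ltb (0.65) and Tnf (0.61) were higher, calls that were lost under median of ratios scaling. The Il10 difference was -0.34 without F1, M3 and M4. Of the 10 factors Runx1 (1.17) and Junb (1.04) led 4 higher calls, of which those of Junb, Ahr and Stat3 were lost under median of ratios scaling, and Irf4 (-0.85) and Hif1a (-0.66) were lower. Of the 19 signalling genes 8 were higher and 1, Il1r2 (-0.99), was lower, beside 48.9% higher and 4.46% lower of all genes tested. The list median was 0.33 and that of all genes 0.34. The 8 higher calls were led by Il12rb1 (0.90), a chain shared by the IL-12 and IL-23 receptors, and Jak2 (0.85). Among those 8, Stat3 and Irak4 changed direction under median of ratios scaling, both to -0.04. Of the 13 other genes 3 were higher, led by Ramp1 (1.09) and Furin (0.60, lost under median of ratios scaling), and 5 lower, led by Ltb4r1 (-1.56) and Aqp3 (-1.33). Of the 4 IL-17 receptor chains Il17rb (1.4) was higher and Il17re (-1.21) lower. Under median of ratios scaling the signalling list stood at 2 higher and 6 lower. Without F1, M3 and M4 the calls were 2 of the effector genes, none of the signalling genes, 1 of the factors, 3 of the other genes and 3 of the receptors.

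**Figure D5:**
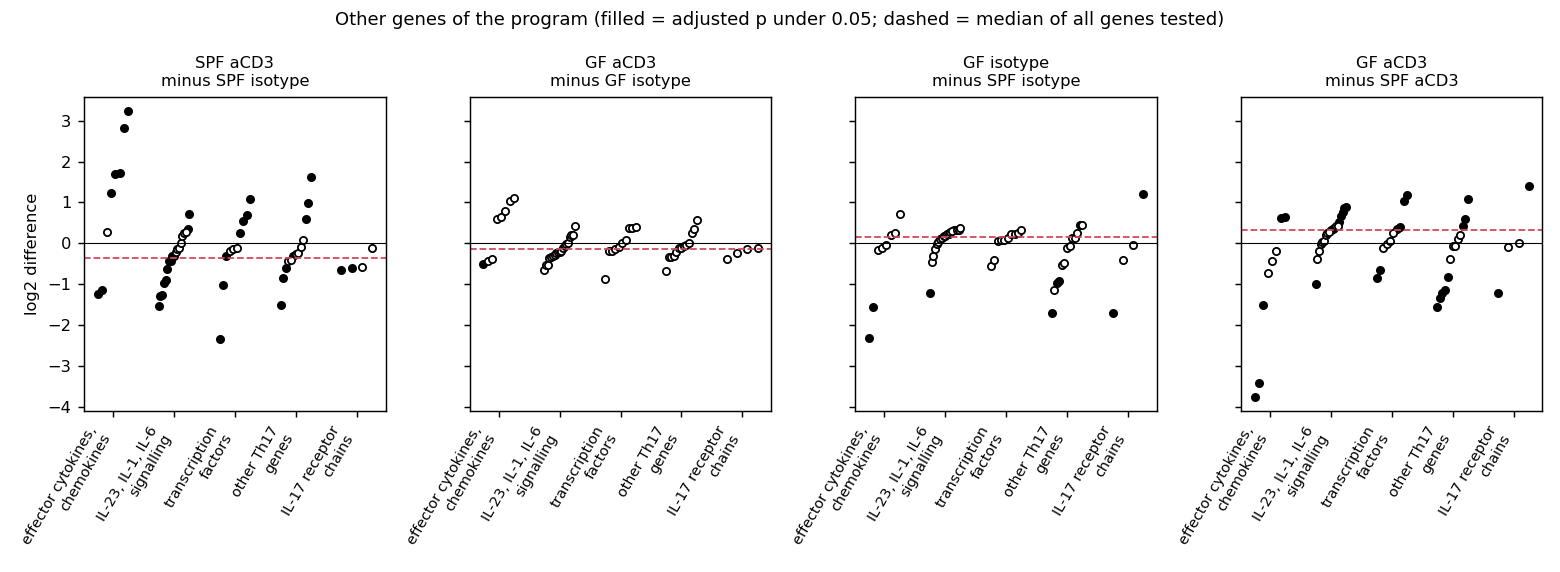
Log2 differences (y axis) of the other genes of the program in 5 lists, 1 point per gene, filled where the adjusted p was under 0.05, with the median of all genes tested as a dashed line. After aCD3 in SPF mice the effector genes run from -1.23 for Tnf to 3.24 for Cxcl3. After aCD3 in GF mice 1 point, Tnf, is filled, a call lost under median of ratios scaling.

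No difference between male and female libraries passed for the 7 genes in the fit over all groups, beside 0.107% of all genes (13 at an adjusted p under 0.05 by limma, 0.0328% higher and 0.0739% lower in males, and none of the 7 had an unadjusted p under 0.05). GF aCD3 held 1 female library, F1, so sex and the values of that library cannot be told apart there.

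The near copies and relatives of these cytokines bear on how the values are read. Iltifb, a second Il22-like gene 79.6 kb away, has a transcript 97.3% identical to that of Il22 (1081 of 1111 aligned bases), so reads may be shared between the pair and both are uncertain to that extent. Iltifb was at 5.04 ± 1.18 TPM with isotype and 3.35 ± 1.79 TPM with aCD3 in SPF mice (SD, n = 6 each), and at 0.742 ± 0.577 TPM with isotype and 1.20 ± 1.32 TPM with aCD3 in GF mice (SD, n = 10 and 6). Like Il22 it was lower in GF than in SPF isotype, by 1.84 on the log2 scale (adjusted p = 0.000634, limma), with no overlap. Il17b and Il25 were listed at 0 in all 28 libraries. Il17d did not exceed 0.143 TPM and Il17c did not exceed 3.32 TPM. Rora overlaps Gm15511, a gene on the opposite strand that ranged from 37.4 to 73.6 TPM in SPF isotype and 9.51 to 19.6 TPM in SPF aCD3. Whether strand was used in counting is not given in the sources used here, so reads of the 2 cannot be told apart.

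Across the 28 libraries the pattern of each gene was compared with that of all other tested genes by Pearson's r of log2(TPM + 1), as a description in which the 4 groups carry much of the likeness. Il17a was most like Irf4 (r = 0.918), Nfil3 (0.870) and Capg (0.862), and Il17f was most like Trib2 (0.917), Ermn (0.912) and Fam20a (0.901). Il22 was most like Il1r2 (0.907) and Il1r1 (0.897), and Il1r1 in turn was most like Il1r2 (0.927), Il22 and Aqp3 (0.886). Il23r was most like Mmp25 (0.885), Il17re (0.871) and Lrrc25 (0.811). Ccr6 was most like Iltifb (0.818), Tmem176b (0.780) and Hey1 (0.753). Rora was most like Arntl (0.985), Cep170 (0.985) and Zfand6 (0.982). Il1r2 followed the levels of Il22 and Il1r1, at 2.79 ± 0.520 TPM with isotype and 3.46 ± 1.26 TPM with aCD3 in SPF mice (SD, n = 6 each), and at 0.646 ± 0.311 TPM with isotype and 1.20 ± 0.407 TPM with aCD3 in GF mice (SD, n = 10 and 6).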

How the data were processed

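RNA was measured in 28 libraries of sorted CD4+ T cells. The deposited table holds TPM, which the authors computed per gene over mm10, per the file headers and the submitters' processing notes; the aligner, the counting program and the strand setting are not given in the sources used here. For 99.24% of genes the listed length equals the genomic span. Libraries were prepared with a total RNA kit and read as single reads per the design text, while a label names polyA RNA. A further 26 per-sample columns matched no sample and were not used.

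Multiplying TPM by length gave whole steps for 100% of the values checked (tolerance 0.1 plus a rounding term). Those were low values above 0 in genes that were neither very short nor very long, and the steps were then used for all genes. Of 89973 values of 1 to 8 steps, 72.7% were even, so 1 read was taken as 2 steps, and a floor of 3 reads as 6. Steps in genes summed to 6765529 to 17860638 per library, and limits cover counting error only. Count models were not the main test, since the deposited unit is TPM.

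Genes with at least 1 TPM in at least 6 libraries (12182, all 7 members among them) were tested as log2(TPM + 1) with limma 3.58.1 (R 4.3.3; empirical Bayes with a trend), all 4 groups in 1 fit with a sex term, and Benjamini-Hochberg adjusted p under 0.05 as the threshold. Python 3.11.15, pandas 2.3.3, NumPy 2.4.6, SciPy 1.17.1 and matplotlib 3.10.9 were used for the rest. The fit was tested on simulated data. Alternatives changed the pseudocount, filter, scaling, test (voom on recovered steps), weights, covariates, libraries and groups in the fit.

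Members and lists were chosen with earlier results of these data known. Beside the members, the 2 highest and 2 lowest called genes of each list and the 3 genes most alike to each member (mean of at least 1 TPM) were named. A gene the rule names is not reported here. Maf, Ahr, Cxcr6, Il6st, Traf6, Stat3 and Irak4, and Il10 and Serpinb1a in the comparisons of GF with SPF, were named after their values were seen, as was the leaving out of GF aCD3 F1, M3 and M4 chosen.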

Additional observations from a re-analysis of the deposited data

Results flagged for a closer look

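In 3 of 28 sets of values (7 genes in 4 groups) 1 library stood far from the others of its group, where chance gives about 1.4. Il17f was at 2.27 TPM in GF isotype F1, the highest of 10. That value rested on 15 counted steps in the library with the fewest steps in genes (6765529), beside 14 counted steps in GF isotype M3. Il17f was also at 8.25 TPM in GF aCD3 M5, above the 2.88 TPM of the next library. Il1r1 was at 0.905 TPM in GF isotype F4, the highest of that group.

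The aCD3 difference was unlike between GF and SPF mice for Il17f (-2.39), Rora (1.39) and Il23r (1.29) by the interaction term of limma, values that lost their calls without GF aCD3 F1, M3 and M4.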

How the results depend on the processing

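Of the 7 genes, 4 to 5 passed after aCD3 in SPF mice under all 26 alternatives, and 3 to 5 between GF and SPF isotype under all 29. After aCD3 in GF mice the count went from 0 to 1 with array weights and to 3 without GF aCD3 F1, M3 and M4, and was 0 to 1 with 1 library left out. Between GF and SPF aCD3 it was 2 without those 3 libraries, 6 with voom, and 7 under median of ratios scaling and under quantile normalization. For the interaction it was 1 with a pseudocount of 0.1, with no filter and with array weights, 0 without the 3 libraries, and 0 to 3 with 1 library left out (0 without GF aCD3 F1 or M4; 1 without SPF isotype F1, F2, M1, M2 or M3, SPF aCD3 F3, M2 or M3, or GF aCD3 M3). The cause was not tested. Over all genes, calls after aCD3 in GF mice (862) ranged from 0 to 7259, between GF and SPF isotype (874) from 178 to 2476, between GF and SPF aCD3 (6496) from 429 to 7231, and for the interaction (424) from 6 to 3187. Depth limits Il17f and Il1r1 most, and the filter at 5 TPM removed Il1r1.

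Among the 7 genes, the directions that turned belonged to values that passed no test. Among the called genes of the lists, Ahr, Cxcr6, Il6st and Traf6 (median of ratios, voom) and Maf (quantile) turned in SPF mice, and Stat3 (median of ratios, voom) and Irak4 (those 2 and quantile) between GF and SPF aCD3. The run of sample numbers gave no value for the comparisons of GF with SPF, since it cannot be told apart from colonisation. For Il22 after aCD3 in GF mice the log2 difference was 0.057 at a pseudocount of 5, 0.13 under median of ratios scaling, 0.095 under quantile normalization, 0.075 without Rn45s and histone genes, 0.42 with voom, 0.057 with array weights, 0.091 with no sex term, 0.21 without the 3 libraries, and -0.21 to 0.41 with 1 library left out. For Il23r it was 0.00020 at a pseudocount of 5, 0.11 under median of ratios and quantile scaling, 0.085 without Rn45s and histone genes, 0.16 with voom, and -0.19 to 0.11 with 1 library left out. For Ccr6 it was -0.0099 at a pseudocount of 5, -0.089 with array weights, -0.10 with the compared groups only, -0.33 without the 3 libraries, and -0.16 to 0.16 with 1 library left out. The interaction of Il22 was 0.034 with array weights, 0.074 without the 3 libraries and -0.56 to 0.28 with 1 library left out. That of Il1r1 was -0.049 at a pseudocount of 5, -0.17 under median of ratios scaling, -0.19 under quantile normalization, -0.027 without Rn45s and histone genes, and -0.22 to 0.26 with 1 library left out. With 1 library left out, Il22 in SPF mice spanned -0.088 to 0.49 and Rora between GF and SPF isotype -0.17 to 0.026. Male against female, Il22 was -0.087 with voom and Il1r1 -0.0076 with array weights, and with 1 library left out Il17f spanned -0.35 to 0.015, Il23r -0.13 to 0.024 and Il1r1 -0.010 to 0.19.

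Deviations of same-named libraries (sex letter and number) from their group means correlated at r -0.03 to 0.10 in SPF and -0.21 to 0.20 in GF. Of 6 pairs each, 1 in SPF and 3 in GF had an r over 0.1. In SPF 1 of 6 libraries and in GF 0 of 6 were most like their own name. The labels do not say whether equal names mark a pair, and so few pairs cannot decide it. With the replicate block 4, 0, 4, 6 and 2 of the 7 genes passed in the 5 comparisons, and 7794, 0, 658, 5715 and 162 of all genes. Il22, Il23r and Ccr6 after aCD3 in GF mice were then at 0.060, 0.037 and -0.074, and Rora between GF and SPF isotype at 0.12.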

Other observations

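Within SPF aCD3 the female libraries held more of several of these genes than the male ones, a split looked at after the values were seen. Il17a was at 456 to 478 TPM in the 3 female and 101 to 326 TPM in the 3 male libraries. Il22 was at 43.8 to 58.7 TPM in the female and 10.0 to 26.4 TPM in the male libraries. How many of all genes part the sexes in the same way was not counted, and with 3 libraries against 3 such a split is weak. The male minus female log2 differences were -1.31 for Il17a (adjusted p = 0.937, limma) and -1.40 for Il22 (unadjusted p = 0.00603, adjusted p = 0.322). Il1r1 differed by -0.94 (adjusted p = 0.235) in SPF aCD3 and by 0.94 (adjusted p = 0.518) in SPF isotype. Il22 also ran the other way in SPF isotype, at 14.1 to 29.2 TPM in the female and 31.5 to 47.0 TPM in the male libraries. Il17a overlapped between the sexes there (51.9 to 76.6 TPM in female and 45.6 to 71.8 TPM in male libraries). None of the 7 genes passed in either group, where 19 and 12 genes did. The male library M2 was lowest of its group for 7 of 7 genes and for 32.8% of all genes tested.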
